A study of Mus musculus with 583 samples.

Results

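Heat shock proteins and their transcription factor were followed as 10 named genes: the cytosolic HSP70 genes Hspa8, Hspa1a and Hspa1b, the HSP110 gene Hsph1, the J-domain gene Dnajb1, the cytosolic HSP90 genes Hsp90aa1 and Hsp90ab1, the mitochondrial chaperonin genes Hspd1 and Hspe1, and Hsf1. All 10 had a row among the 38924 mouse genes of the count table. All 10 also passed the filter on low counts that left 14293 genes, but Hspa1a and Hspa1b passed only through their CEL-seq2 and SCRB-seq libraries, where they are highest. Their values are therefore given as descriptions and not counted among the members that differed, which leaves 8.

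The cells were J1 mouse embryonic stem cells, an established line, cultured in 2i/LIF, a medium of leukaemia inhibitory factor with MEK and GSK3 inhibitors that keeps pluripotent cells naive, and no treatment separated the groups. Every cell came from the same line and medium, and the labels record no heat or other stress. The groups are 6 single-cell RNA-seq methods with a library A and a library B each, 12 libraries and 583 cells in all. Smart-seq / C1 and Smart-seq2 sequence fragments from the whole transcript, counted as reads. By contrast CEL-seq2, MARS-seq, Drop-seq and SCRB-seq tag the 3' end and were counted as UMIs, which mark each captured molecule once. Amplification is by in vitro transcription in CEL-seq2 and MARS-seq and by PCR in Drop-seq and SCRB-seq, and, from what is known of the study, the Fluidigm C1 chip was used to capture cells for Smart-seq / C1 and for CEL-seq2. The comparisons ask how cells of the same line look through each method. Each cell was profiled by 1 method, and the labels do not say that methods shared a culture or day, so method, culture and batch cannot be told apart.

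Chaperones bind unfolded stretches of other proteins and let them fold. HSP70 works with J-domain proteins, which deliver substrates and start ATP hydrolysis, and with exchange factors such as HSP110, which release the nucleotide. HSP90 takes over kinases, receptors and transcription factors at a late stage of folding, and HSP60 with its lid HSP10 forms a folding chamber inside mitochondria. HSF1 is held inactive by chaperones in unstressed cells. Under stress it assembles, binds heat shock elements made of inverted GAA units, and switches on Hspa1a, Hspa1b, Dnajb1, Hsph1 and other chaperone genes, whereas Hspa8 and Hsp90ab1 are known as the constitutive forms.

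Of the 10 members, 7 share much of their sequence with other places in the genome. Each transcript was divided into all its words of 31 bases, and each word was looked up in the GRCm38 genome. For Hspa8 (chr9:40800984-40810087, plus strand, 9 exons), 80.2% of the words also stood elsewhere, and 94.9% of those in its last 500 bases, where a 3' tag lies. Hspd1 (chr1:55077835-55088243, minus strand) reached 73.5% overall and 82.1% in its last 500 bases, and Hspe1 (chr1:55088132-55091307, plus strand) 59.3% and 86.2%. Hsp90aa1 (chr12:110690605-110702728, minus strand) had 78.3% overall but 13.2% near its 3' end, and Hsp90ab1 (chr17:45567775-45573271, minus strand) 23.5% and 52.8%. The neighbouring single-exon genes Hspa1a (chr17:34969190-34972156, minus strand) and Hspa1b (chr17:34956436-34959238, minus strand) shared 65.4% and 68.5% of their words, mostly with each other, but 0% and 5.74% in their last 500 bases. Hsph1, Dnajb1 and Hsf1 were close to unique, with 0%, 1.25% and 0.434%.

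**Figure D1:**
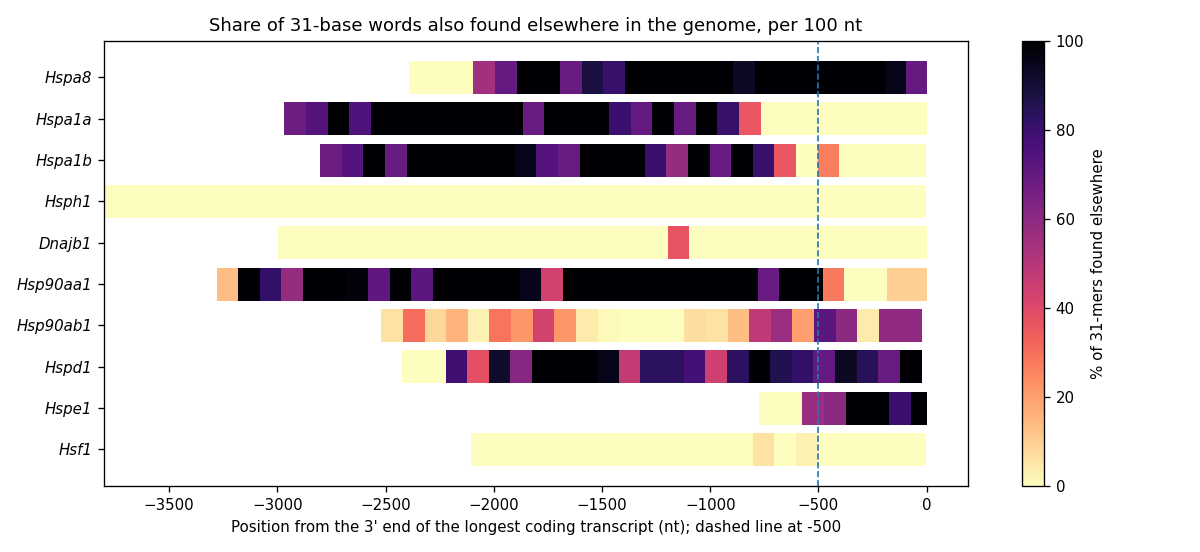
Share of 31-base words of each member's longest coding transcript that also occur elsewhere in the genome, in steps of 100 bases from the 3' end (0) leftwards, with a dashed line 500 bases from the end. Hspa8, Hspd1 and Hspe1 are dark up to the 3' end, Hspa1a, Hspa1b and Hsp90aa1 are dark along the coding part but mostly pale at the end, and Hsph1, Dnajb1 and Hsf1 are pale throughout.

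Stretches near the end of the coding part show how close the copies can be, and they are printed because counts at these genes depend on telling the copies apart. For each pair the last stretch of 60 bases that matched closely was taken, so the matches do not describe the whole coding part. For Hspa1a the 60 bases before the stop codon matched less closely and were passed over. The stretches below are the final 60 coding bases before the stop codon, or, for Hspa1a, bases 1804 to 1863 counted from the first base of the start codon, with bases that differ between a gene and its copy in capitals. The Hspa8 stretch matched the processed pseudogene Gm8355 (chr10:14745362-14747302, minus strand) at all 60 bases, and the Hsp90aa1 stretch matched both Gm12346 (chr11:77293444-77295898, plus strand) and Gm5844 (chr3:18008806-18010996, plus strand) at all 60. Hspd1 matched Hspd1-ps3 (chr11:41498737-41500458, plus strand) at 58 of 60 bases, and Hspa1a matched Hspa1b at all 60.
Hspa8 and Gm8355: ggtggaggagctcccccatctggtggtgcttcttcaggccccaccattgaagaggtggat
Hsp90aa1, Gm12346 and Gm5844: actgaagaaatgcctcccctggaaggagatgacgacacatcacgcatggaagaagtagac
Hspd1: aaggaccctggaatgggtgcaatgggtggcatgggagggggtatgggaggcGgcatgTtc
Hspd1-ps3: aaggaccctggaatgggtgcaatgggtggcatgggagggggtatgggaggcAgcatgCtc
Hspa1a and Hspa1b: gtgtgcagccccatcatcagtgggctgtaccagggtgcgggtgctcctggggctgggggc

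The promoters of 6 members were in the RefSeq table of promoters (GRCm38.p6, 250 bases before to 50 after each start site), and they were searched for heat shock elements because HSF1 is itself a member. Each motif was searched on both strands: 3 alternating units as TTCNNGAANNTTC or GAANNTTCNNGAA, and 2 units as TTCNNGAA or GAANNTTC, so that every match of 3 units also holds matches of 2. Of all 32851 promoters in the table, 0.603% held the motif of 3 units and 15.1% the motif of 2. Hspd1 and Hspe1 are transcribed away from each other, with annotated gene bodies that overlap at their starts, so where strand was not used in counting, which the sources used here do not give, reads of that overlap cannot be told apart. They share 1 run of 4 contiguous units, which lies 72 to 89 bases before the Hspe1 start site. For Hspd1 the run lies at bases -144 to -127 from 1 of its start sites, and the window of its other start site held neither motif. Hsph1 held 3 units from base 37 to 49 after 1 of its start sites. Hspa1a and Hspa1b, whose promoters were identical at 296 of 300 bases, held 2 units between 97 and 104 bases before their start sites, and neither Dnajb1 window held either motif. These matches are letters in a window and no measurement of binding. The sequences below are 5' to 3' on the strand of the named gene, with the units in capitals.
Hspe1 promoter, chr1:55088053-55088082, plus strand: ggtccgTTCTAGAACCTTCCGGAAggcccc
Hsph1 promoter, chr5:149636287-149636308, minus strand: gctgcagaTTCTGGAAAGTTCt
Hspa1a promoter, chr17:34972242-34972271, minus strand: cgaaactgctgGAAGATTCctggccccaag
Hspa1b promoter, chr17:34959324-34959353, minus strand: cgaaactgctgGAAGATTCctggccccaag

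The libraries held 29 to 80 cells, with median counts per cell between 269281 and 439870 reads in the full-length libraries and between 16188 and 74255 UMIs in the tag libraries. All 9 markers of naive stem cells had counts in every library, summing to 2874 to 7069 CPM, while 8 fibroblast markers summed to 0.438 to 42.1 CPM and 6 primitive endoderm markers to 0 to 33.2 CPM, highest in CEL-seq2 A for both. Postn was at 0 in all libraries. Libraries A and B of a method shared 19 to 66 well or index names, and Drop-seq A and B shared 0 barcodes. In Drop-seq, 29 of 42 barcodes in library A and 12 of 34 in library B lay 1 base from another barcode of their library, so some listed cells may be 1 cell counted under several barcodes. Sums over a library are the same whether or not such barcodes are joined. Whether a molecule was counted under more than 1 barcode was not tested. Nothing in the labels says that A and B came from separate cultures, so p-values measure only the spread between these libraries. In summed counts, fewer cells with a transcript and less of it per cell cannot be told apart.

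By its own row, Hsp90ab1 was the most abundant member in all 6 methods. Its level, as TMM-scaled CPM (counts as a share of the library, with library sizes adjusted by the trimmed mean of M-values), was 7946 and 10401 CPM in Smart-seq / C1 libraries A and B, 5277 and 5173 CPM in Smart-seq2, 6130 and 5641 CPM in CEL-seq2, 2947 and 2946 CPM in MARS-seq, 10081 and 8401 CPM in Drop-seq, and 4886 and 3902 CPM in SCRB-seq. The Drop-seq and Smart-seq / C1 libraries were highest and overlapped each other, and the MARS-seq pair was lowest, below every other library. Hsp90aa1, the stress-responsive HSP90, had 962 and 995 CPM in Smart-seq / C1, 877 and 930 CPM in Smart-seq2, 3693 and 3302 CPM in CEL-seq2, 1910.4 and 2006 CPM in MARS-seq, 8215 and 6230.4 CPM in Drop-seq, and 3985 and 3270.3 CPM in SCRB-seq. All 4 full-length libraries lay below all 8 tag libraries. These values are of own rows. With the rows of its copies summed, described below, Hsp90aa1 had 3725 and 4226 CPM in MARS-seq and 13850 and 9868 CPM in Drop-seq. Summed in this way, it lay above Hsp90ab1 in each of these libraries and in SCRB-seq B, and below Hsp90ab1 in the others.

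To set members against each other, full-length levels were divided by the length of the longest coding transcript, while UMI levels were not, since a tagged molecule is counted once. On that scale Hsp90aa1 made up 8.51% and 6.84% of the summed level of both HSP90 genes in the Smart-seq / C1 libraries, and 11.3% and 12.1% of it in the Smart-seq2 libraries. In the tag libraries it made up 36.9% to 45.6%, so the share in the full-length libraries was lower in all 4 than in any tag library. These shares are of own rows. Rows of Hsp90aa1 copies, described below, held 15.9% to 52.5% of its summed counts in tag libraries. With them Hsp90aa1 was the larger part in the MARS-seq and Drop-seq libraries.

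The chaperonin pair did not keep a fixed ratio between methods. Hspd1, the HSP60 subunit, had 355 and 509 CPM in Smart-seq / C1, 477 and 457 CPM in Smart-seq2, 192 and 355 CPM in CEL-seq2, 377 and 509.6 CPM in MARS-seq, 1422 and 899 CPM in Drop-seq, and 703 and 644 CPM in SCRB-seq. Hspe1, its HSP10 lid, had 217 and 146 CPM in Smart-seq / C1, 338 and 325 CPM in Smart-seq2, 2553 and 2541 CPM in CEL-seq2, 1764.5 and 1731.5 CPM in MARS-seq, 966 and 588 CPM in Drop-seq, and 1099.5 and 1058 CPM in SCRB-seq. By its own row, Hspd1 was highest in Drop-seq and lowest in CEL-seq2. With the row of its copy Hspd1-ps3 summed, Hspd1 had 420 and 814 CPM in CEL-seq2, against 357.5 and 519 CPM in Smart-seq / C1. Summed in this way, CEL-seq2 was no longer lowest. Hspe1 was highest in CEL-seq2 and lowest in the full-length libraries, and for Hspe1 no method's pair overlapped another's. As levels per length in full-length and per UMI in tag libraries, Hspd1 over Hspe1 was 0.522 in Smart-seq / C1 A, 1.11 in Smart-seq / C1 B and 0.45 and 0.449 in the Smart-seq2 libraries. Among tag methods the ratio stood at 0.0753 and 0.14 in CEL-seq2 A and B, at 0.214 and 0.294 in the MARS-seq libraries, at 1.47 and 1.53 in those of Drop-seq and at 0.639 and 0.609 in those of SCRB-seq. The ratios are of own rows. Of the summed counts of Hspd1 and Hspd1-ps3, the copy held 54.2% and 56.4% in CEL-seq2 and 24.3% to 39.1% in the other tag libraries.

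Hspa8, the constitutive cytosolic HSP70, had 223 and 386 CPM in Smart-seq / C1, 183 and 169 CPM in Smart-seq2, 4.2 and 4.53 CPM in CEL-seq2, 176 and 334 CPM in MARS-seq, 106 and 90.2 CPM in Drop-seq, and 71.3 and 182 CPM in SCRB-seq. CEL-seq2 lay far below the other 10 libraries, which overlapped from method to method. Counted over cells thinned to 10000 counts each, Hspa8 was seen in 3 of 34 and 2 of 37 CEL-seq2 cells (8.82% and 5.41%), against 24 of 29 and 35 of 36 MARS-seq cells (82.8% and 97.2%). Without thinning the shares were 14.7% and 27% in CEL-seq2 and 93.1% and 100% in MARS-seq, where median counts per cell were lower. All these values are of the Hspa8 row alone. Rows of its copies, described below, held 97.1% and 98.3% of the summed counts in CEL-seq2, and 79.7% and 76.7% in MARS-seq. The shares therefore do not show how many cells lacked Hspa8 transcript. The series holds no cell type that should lack a member, so the share that free RNA gives was not measured.

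The inducible HSP70 genes were near the limit of detection in every method. Hspa1a had 4 and 0 reads in Smart-seq / C1 A and B, 28 and 13 reads with Smart-seq2, 5 and 13 UMIs with CEL-seq2, 1 UMI in each MARS-seq and each Drop-seq library, and 1 and 17 UMIs with SCRB-seq. Hspa1b had 35 and 4 reads in Smart-seq / C1 A and B, 7 and 1 reads with Smart-seq2, 16 and 24 UMIs with CEL-seq2, 1 UMI in each MARS-seq library, 0 UMIs in each Drop-seq library, and 24 and 19 UMIs with SCRB-seq. Reads from the shared words of the pair cannot be assigned with certainty, so each gene's own count in the full-length libraries is uncertain. Neither gene passed 13.4 CPM in any library, the level of Hspa1b in CEL-seq2 A. At least 1 count of either gene was present in 38.2% and 56.8% of CEL-seq2 cells and in 41% and 40% of SCRB-seq cells, and in 2.38% to 17.4% of the cells of the other 8 libraries. The most in 1 cell was 15 reads in a full-length library and 7 UMIs in a tag library. After thinning to 10000 counts per cell, 0% to 13.5% of the cells of a library held either gene. For Hspa1b in Drop-seq the count of 0 allowed up to 1.95 CPM (3 counts over both libraries), 4.97-fold below the SCRB-seq mean of 9.71 CPM. This bound covers counting error in Drop-seq only, and neither error in SCRB-seq nor the spread between libraries. The edgeR test did not call Hspa1b between these methods (adjusted p = 0.118).

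The HSP70 partners and the factor were of middle and low level. Hsph1, the HSP110 exchange factor, had 181 and 216 CPM in Smart-seq / C1, 247 and 214 CPM in Smart-seq2, 45.3 and 121 CPM in CEL-seq2, 74.7 and 118 CPM in MARS-seq, 115 and 137 CPM in Drop-seq, and 207 and 187 CPM in SCRB-seq. Dnajb1, which stimulates HSP70, had 46.9 and 51.8 CPM in Smart-seq / C1, 135 and 126 CPM in Smart-seq2, 43.7 and 73.2 CPM in CEL-seq2, 49.8 and 67.9 CPM in MARS-seq, 40.5 and 103 CPM in Drop-seq, and 38.1 and 71.3 CPM in SCRB-seq. Hsph1 was highest in the full-length and SCRB-seq libraries, and Dnajb1 stood out only in Smart-seq2, the other 10 libraries all overlapping. Hsf1 had 24 and 30.8 CPM in Smart-seq / C1, 78.6 and 71 CPM in Smart-seq2, 63 and 77.7 CPM in CEL-seq2, 21.3 and 29.3 CPM in MARS-seq, 4.37 and 4.83 CPM in Drop-seq, and 22.6 and 38.9 CPM in SCRB-seq. The Smart-seq2 and CEL-seq2 pairs were highest and overlapped, Smart-seq / C1, MARS-seq and SCRB-seq overlapped below them, and Drop-seq was lowest, from 4 and 3 UMIs.

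**Figure D2:**
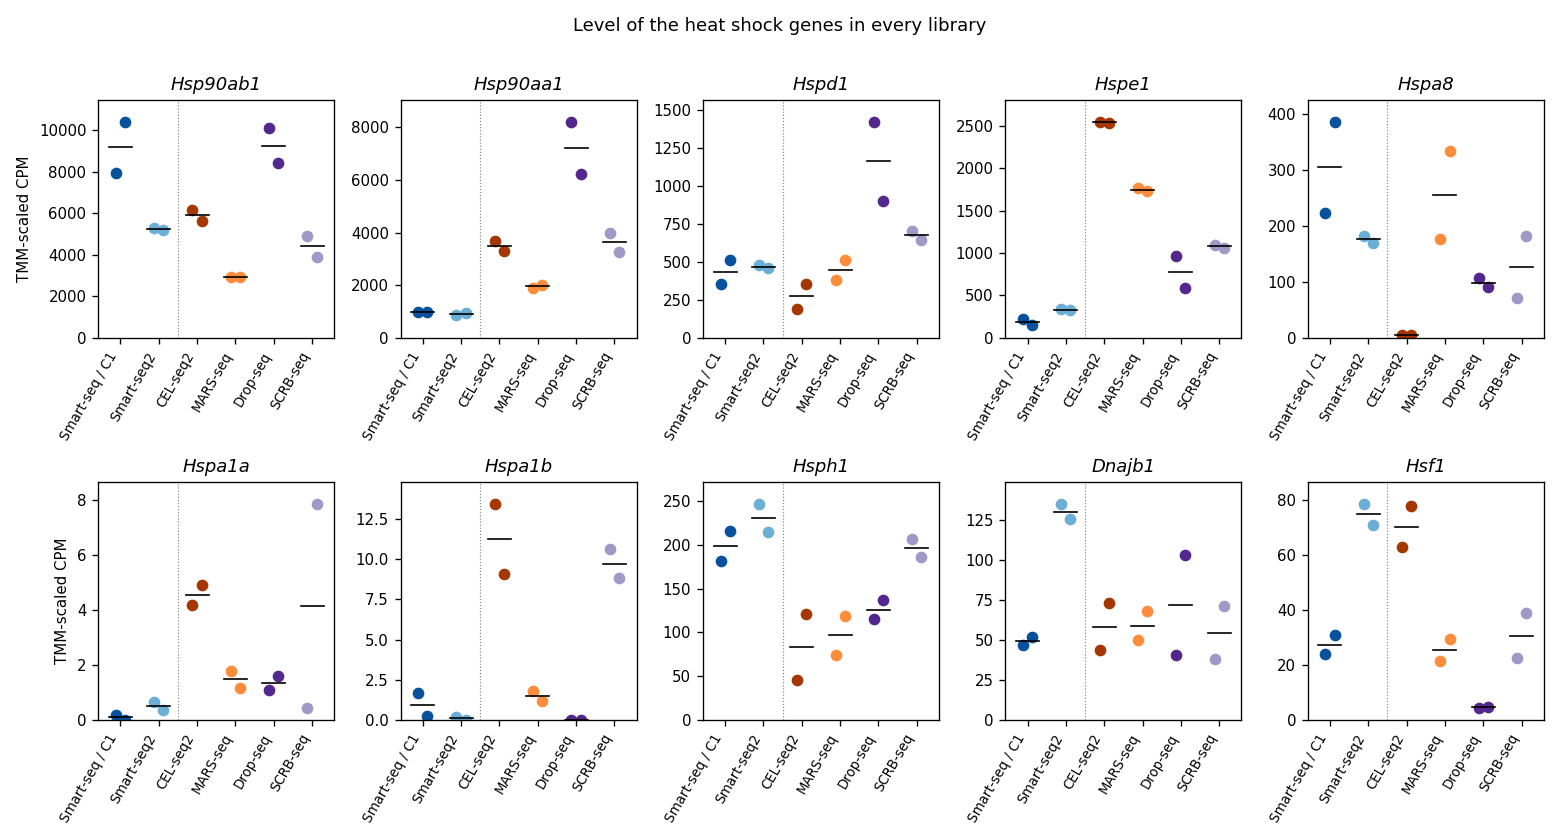
Level of each member in TMM-scaled CPM (linear axes from 0, one scale per gene), with a point for library A and one for library B of each method and a line at their mean; a dotted line parts the full-length methods on the left from the tag methods. Hspe1 and Hsp90aa1 lie lowest in the full-length methods, Hspa8 is near 0 in CEL-seq2, and Hsf1 is near 0 in Drop-seq.

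The order of members within a method was similar but not the same in all. Per length in full-length and per UMI in tag libraries, Hsp90ab1 came first in all 6 methods and overlapped the second only in SCRB-seq. Hsp90aa1, Hspe1 and Hspd1 filled ranks 2 to 4 everywhere, and Hsp90aa1 was second in every method but Smart-seq2, where Hspe1 (437 and 420 CPM per kb) stood above Hsp90aa1 (267 and 283 CPM per kb). Hspa1a and Hspa1b held ranks 9 and 10 in all methods but CEL-seq2, where Hspa8 was last and overlapped Hspa1a. Ranks are of each member's own row. With the rows of its copies summed, described below, Hspa8 had 144 and 262 CPM in CEL-seq2 and 866 and 1432 CPM in MARS-seq. Summed likewise, Hsp90aa1 lay above Hsp90ab1 in the MARS-seq and Drop-seq libraries. Without the division by length, Hspe1 dropped to rank 6 in Smart-seq / C1 and to rank 4 in Smart-seq2.

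Several rows of the table hold copies of members, and they held many counts in tag libraries and few in full-length ones. For Hspa8 these were Gm8355 and Gm26825, the second annotated as a lincRNA (chr5:5781530-5783636, plus strand). Their sum was 0.237 to 1.13 CPM in the full-length libraries, against 140 to 1380 CPM in the tag libraries, and they took 0.13% to 0.506% of the counts of Hspa8 and its copies in full-length libraries and 76.7% to 98.3% in tag libraries. In CEL-seq2 the copies had 140 and 257 CPM where Hspa8 itself had 4.2 and 4.53. For Hsp90aa1, Gm12346 and Gm5844 took 0.581% to 2.18% in full-length and 15.9% to 52.5% in tag libraries. For Hspd1, Hspd1-ps3 took 0.322% to 1.95% in full-length and 24.3% to 56.4% in tag libraries. Both ranges parted the full-length from the tag libraries without overlap for all 3 genes. Whether the counts in the copy rows came from the copies' own transcripts was not tested. Hspe1 and Hsp90ab1 shared words with 3 and 2 other places in the genome, and no other row was summed with theirs.

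**Figure D3:**
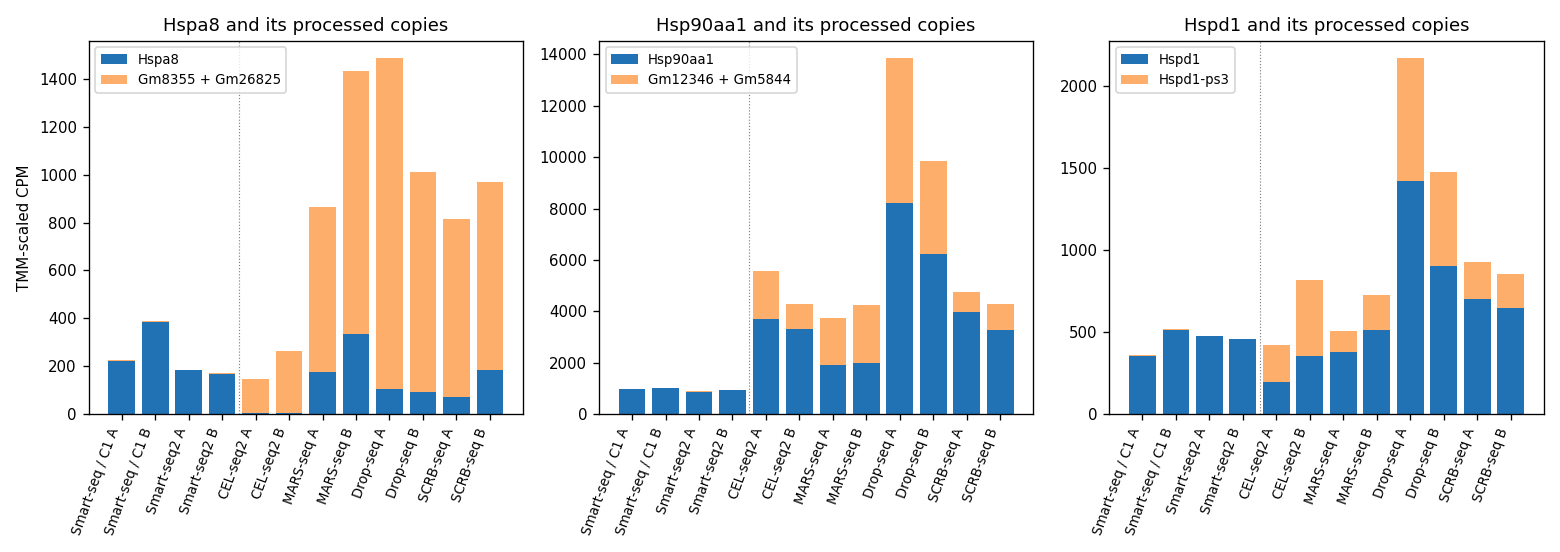
TMM-scaled CPM of Hspa8, Hsp90aa1 and Hspd1 (blue) and of the rows that share their sequence (orange, stacked) in each of the 12 libraries; a dotted line parts full-length from tag libraries. Orange is invisible in the 4 full-length libraries and makes up 76.7% to 98.3% of the Hspa8 bars in the tag libraries.

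Full-length and 3' tag libraries differed at 5 of the 8 members counted, 3 higher and 2 lower. Hspa8 (log2 fold change 1.92 ± 0.26 SE, adjusted p = 7.35e-06), Hsph1 (0.84 ± 0.23, 0.00561) and Hsf1 (1.01 ± 0.27, 0.00495) were higher in full-length libraries, and Hspe1 (-2.50 ± 0.22, 2.55e-08) and Hsp90aa1 (-1.96 ± 0.20, 1.7e-07) were lower. Hspe1 averaged 257 ± 91.7 CPM in full-length and 1538 ± 735 CPM in tag libraries, and Hsp90aa1 averaged 941 ± 50.1 CPM in full-length and 4076 ± 2143 CPM in tag libraries (SD, n = 4 full-length and 8 tag libraries), both without overlap. For Hspa8 the means were 240.2 ± 99.9 CPM in full-length and 121 ± 109 CPM in tag libraries, and the groups overlapped through the MARS-seq and SCRB-seq libraries. Hsf1 averaged 51.1 ± 27.7 CPM in full-length and 32.7 ± 26.2 CPM in tag libraries, and these groups overlapped too. So did those of Hsph1, through the SCRB-seq libraries, with 215 ± 26.9 CPM in full-length and 126 ± 53 CPM in tag libraries. The fold changes are from edgeR's quasi-likelihood test on counts summed per library, adjusted by Benjamini-Hochberg over all genes tested. In this contrast 25.6% of all genes were called higher and 23.2% lower, and 3 and 2 of 8 members are near those shares. Reads scale with transcript length and UMIs do not, and the longest coding transcripts measured 774 bases for Hspe1 and 3802 bases for Hsph1; the part of length in these values was not tested. Hspa8 turned round with its copies summed into 1 row, a setting chosen after seeing the data, to -1.62 (adjusted p = 2.41e-05), while Hsp90aa1 went to -2.58 (adjusted p = 1.03e-08) and Hspd1, not called alone (-0.31 ± 0.21, adjusted p = 0.253), to -0.97 (adjusted p = 0.00157). Hsp90ab1 (0.43 ± 0.18, adjusted p = 0.0576) was called higher without any 1 of 9 libraries, at 0.47 to 0.74, and Dnajb1 without MARS-seq B or Drop-seq B, at 0.749 to 0.87. Hspa1a averaged 0.304 ± 0.282 CPM in full-length and 2.88 ± 2.55 CPM in tag libraries.

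Smart-seq / C1 and Smart-seq2 differed at 2 members, both lower in Smart-seq / C1: Hsf1, with 24 and 30.8 CPM in Smart-seq / C1 against 78.6 and 71 CPM in Smart-seq2 (-1.45 ± 0.42, edgeR adjusted p = 0.0255), and Dnajb1, with 46.9 and 51.8 CPM in Smart-seq / C1 against 135 and 126 CPM in Smart-seq2 (-1.40 ± 0.44, adjusted p = 0.038). Of all genes 8.76% were called higher and 6.82% lower in Smart-seq / C1. The HSP90 genes, Hspd1, Hspe1, Hsph1 and Hspa8 did not pass, with log2 fold changes of -0.87 to 0.81. With 1 library left out, Hspe1 was called without Smart-seq / C1 A or CEL-seq2 A (-1.21 to -1.01, adjusted p 0.0107 to 0.0432), and Hsp90ab1 without Smart-seq / C1 A (0.968, adjusted p = 0.00817). The Dnajb1 call was lost without any 1 of the 4 libraries of these methods (adjusted p 0.0744 to 0.197), and the Hsf1 call without Smart-seq / C1 A, Smart-seq2 A or Smart-seq2 B (adjusted p 0.07 to 0.209). Both genes lay lower in the 2 Smart-seq / C1 libraries than in either Smart-seq2 library.

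CEL-seq2 and MARS-seq, the methods that amplify by in vitro transcription, differed at 4 members. Hspa8 was lower in CEL-seq2 (-5.86 ± 0.57, edgeR adjusted p = 1.35e-06), and Hsf1 (1.46 ± 0.46, 0.0287), Hsp90ab1 (0.998 ± 0.30, 0.0226) and Hsp90aa1 (0.84 ± 0.29, 0.0462) were higher. Of all genes 11% were called higher and 12.4% lower. With the copies summed, Hspa8 had a log2 fold change of -2.49 (adjusted p = 0.000177), with 144 and 262 CPM in CEL-seq2 against 866 and 1432 CPM in MARS-seq, and Hsp90aa1 was no longer called (0.31, adjusted p = 0.498). The calls of the other genes were lost when 1 library was left out: Hsp90aa1 for 10 of 12 libraries, all but the Smart-seq / C1 pair (adjusted p 0.0667 to 0.266), Hsp90ab1 for Smart-seq2 A and B, MARS-seq A and B, SCRB-seq A and Drop-seq A and B (0.0529 to 0.149), and Hsf1 for Smart-seq2 A and B, CEL-seq2 B and MARS-seq A and B (0.0739 to 0.206). With DESeq2 size factors in the same fit, only Hspa8 was called, and the median over all genes moved to 0.016, against 0.19 with TMM.

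Drop-seq and SCRB-seq, the tag methods amplified by PCR, differed at 1 member: Hsf1 was lower in Drop-seq, with 4.37 and 4.83 CPM in Drop-seq against 22.6 and 38.9 CPM in SCRB-seq (-2.74 ± 0.58, edgeR adjusted p = 0.0241). Of all genes 1.03% were called higher and 0.483% lower in Drop-seq. Hsp90ab1 (1.07 ± 0.30, adjusted p = 0.0788) and Hsp90aa1 (0.99 ± 0.29, adjusted p = 0.0926) lay above SCRB-seq in both Drop-seq libraries without passing. Both were called without Smart-seq / C1 A or Smart-seq / C1 B, and Hsp90ab1 also without CEL-seq2 A. The Hsf1 call was lost without any 1 of the 4 libraries of these methods (adjusted p 0.0837 to 0.286). With DESeq2 size factors 86.2% of the calls were higher in Drop-seq, against 68.1% with TMM, and both HSP90 genes were then called (1.29 and 1.21, adjusted p = 0.0319 and 0.0389). Hsp90aa1 was called as well with its copies summed (1.39, adjusted p = 0.0274).

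Among tag methods, in vitro transcription against PCR divided the members. Hspe1 averaged 2148 ± 462 CPM with in vitro transcription and 928 ± 233 CPM with PCR (SD, n = 4 each; 1.204 ± 0.22, edgeR adjusted p = 0.00108), and Hsf1 averaged 47.8 ± 26.9 CPM with in vitro transcription and 17.7 ± 16.5 CPM with PCR (1.84 ± 0.37, 0.00213). Lower with in vitro transcription were Hspd1 (-1.34 ± 0.25, 0.0011), Hsp90aa1 (-0.97 ± 0.21, 0.00321) and Hsp90ab1 (-0.61 ± 0.21, 0.0452). Of these Hspd1 alone had all 4 libraries made by in vitro transcription below all 4 made by PCR. For Hsp90ab1 CEL-seq2 (6130 and 5641 CPM) lay above SCRB-seq (4886 and 3902 CPM), for Hsp90aa1 CEL-seq2 overlapped SCRB-seq, and for Hsf1 MARS-seq overlapped SCRB-seq. The fitted value of Hspa8, which averages log levels over methods, was also below 0 (-1.73 ± 0.35, 0.002), but its mean level ran the other way, with 129.7 ± 158 CPM for in vitro transcription and 112 ± 48.7 CPM for PCR. CEL-seq2 alone lay below the PCR libraries, at 4.2 and 4.53 CPM, and MARS-seq, at 176 and 334 CPM, lay above both Drop-seq libraries and overlapped SCRB-seq. The chaperonin partners thus went opposite ways, and for Hspe1 the 4 libraries made by in vitro transcription lay above all 4 made by PCR. Of all genes 9.14% were called higher and 12.9% lower, beside 2 and 4 of 8 members, Hspa8 among the 4. The Hsp90ab1 call was lost when any 1 of 10 libraries was left out, all but the Smart-seq / C1 pair (adjusted p 0.0581 to 0.159), and without cells of more than 2 times the median count (adjusted p = 0.0558). The Hspa8 value was -1.13 with its copies summed (adjusted p = 0.00578). Hsph1 did not pass (-0.79 ± 0.28, adjusted p = 0.0525), but it was called lower without CEL-seq2 B (-1.24, adjusted p = 0.00606) and under 6 other settings: both other scalings, DESeq2's own test, no filter, the letter as a block, and limma (adjusted p 0.0166 to 0.0452).

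Methods on the C1 chip against their partners without it, that is Smart-seq / C1 and CEL-seq2 against Smart-seq2 and MARS-seq, differed at 2 of the 8 members counted. The partners differ in more than the chip, so capture and the rest of the method cannot be told apart. Hsp90ab1 averaged 7530 ± 2156 CPM in the methods on the chip and 4086 ± 1316 CPM in their partners (SD, n = 4 each; 0.90 ± 0.21, edgeR adjusted p = 0.00454). Hspa8 was lower (-2.53 ± 0.34, 5.43e-05), through CEL-seq2 alone, since both Smart-seq / C1 libraries lay above both of Smart-seq2. Of all genes 13.6% were called higher and 11.6% lower. With its copies summed Hspa8 changed by -0.85 (adjusted p = 0.0238). Hsp90ab1 was higher in the method on the chip in both pairs, and leaving out any 1 library did not end its call.

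The change between the method on the C1 chip and its partner was not the same in the full-length pair and the in vitro transcription pair at 3 members. For Hspa8 the log2 fold change was 0.79 ± 0.41 in Smart-seq / C1 over Smart-seq2 and -5.86 ± 0.57 in CEL-seq2 over MARS-seq, a difference of 6.65 ± 0.70 (edgeR adjusted p = 1.34e-05). For Hsf1 it was -1.45 ± 0.42 in the full-length pair and 1.46 ± 0.46 in the other, a difference of -2.91 ± 0.62 (adjusted p = 0.00422), and for Hspe1 it was -0.87 ± 0.31 in the full-length pair and 0.54 ± 0.31 in the other, a difference of -1.41 ± 0.44 (adjusted p = 0.0374). Of all genes 8.58% were called with a higher and 7.16% with a lower difference. With its copies summed the Hspa8 difference was 3.29 (adjusted p = 0.000518). The Hspe1 call was lost when 1 library was left out, for 8 of 12, all but Smart-seq / C1 A, CEL-seq2 A and the Drop-seq pair (adjusted p 0.0583 to 0.14), and with DESeq2 size factors (adjusted p = 0.0782).

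In the joint test of all methods, 7 of the 8 members counted differed between methods, beside 65.5% of all genes. Dnajb1 was the exception (edgeR adjusted p = 0.0535). The smallest adjusted p was that of Hspe1 (1.73e-07), followed by Hsp90aa1 (4.64e-07).

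**Figure D4:**
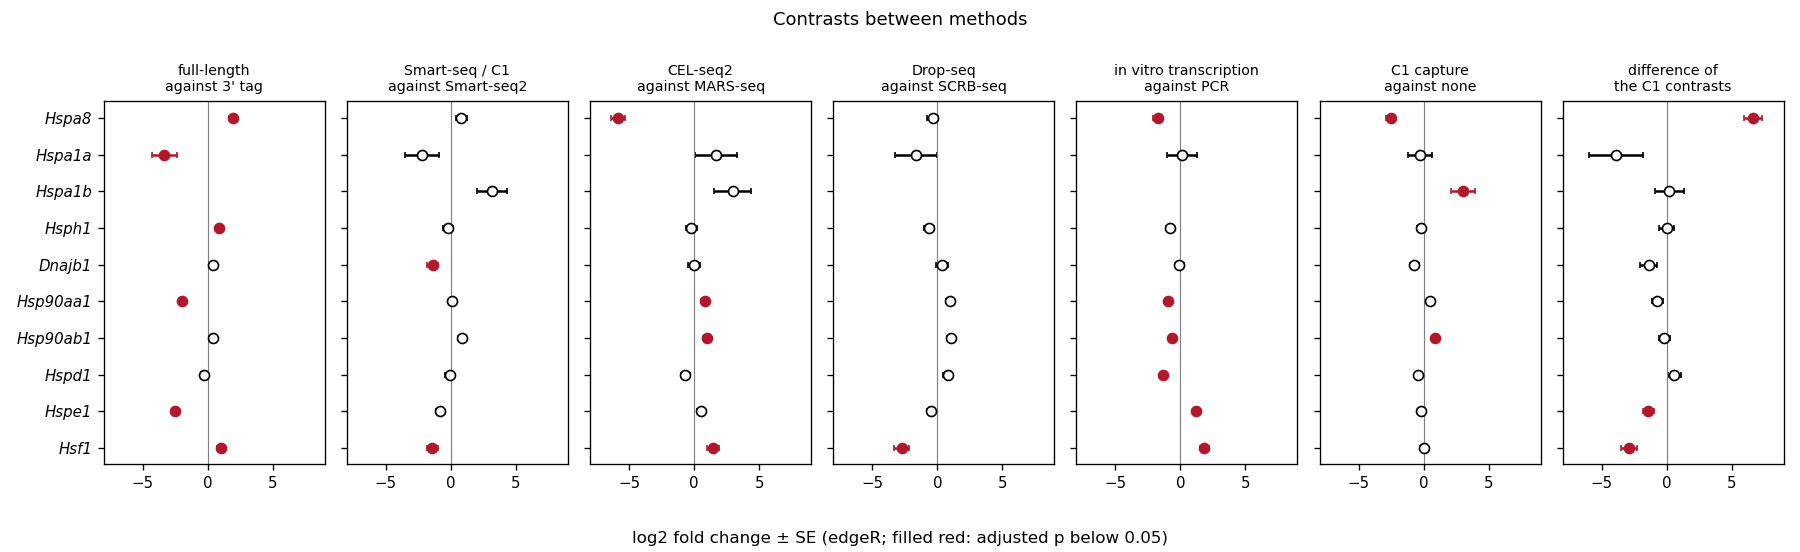
Log2 fold change with its standard error for each member in the 6 contrasts and in the difference of the C1 contrasts (edgeR), the first-named group over the second; filled red points have an adjusted p below 0.05. Hspa1b is left out of contrasts with Drop-seq, where it had no count, and red points of Hspa1a and Hspa1b are not counted as differences, since these genes passed the filter only through libraries where they are high. Hspa8 moves most between panels and Dnajb1 is red in the second panel alone.

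Genes that work with the members were taken from lists chosen with earlier results of these data known, and 2 pairs of lists share 4 genes each. Between full-length and tag libraries, where 25.6% of all genes were called higher and 23.2% lower, 6 of 19 tested HSF1-linked stress genes rose and 3 fell (median log2 fold change 0.27, against 0.21 over all genes), led by the HSP90 activator Ahsa1 (1.98 ± 0.18, edgeR adjusted p = 5.82e-08) and the small heat shock protein Hspb1 (-3.64 ± 0.36, 3.61e-07). Of 16 HSP90 cochaperones 9 rose and 1 fell (median 0.68), and the one that fell was Nudc (-0.64 ± 0.20, adjusted p = 0.0137). Of 21 tested HSP70 cochaperones and exchange factors 7 rose and 6 fell (median 0.28), with St13, which links HSP70 to HSP90, at 1.49 ± 0.22 (adjusted p = 2.12e-05) and the J-domain gene Dnajb6 at -1.58 ± 0.23 (adjusted p = 1.94e-05). Among 12 mitochondrial chaperones and proteases 6 rose and 2 fell (median 0.68), from Trap1, the mitochondrial HSP90 (2.10 ± 0.21, adjusted p = 1.77e-07), to Dnajc19 (-1.32 ± 0.20, adjusted p = 3.4e-05). Of 7 tested heat shock factors and regulators 4 rose and 1 fell (median 0.72), the fall being the unfoldase Vcp at -2.19 ± 0.25 (adjusted p = 8.62e-07). Among the 4 was Hsf5, with 7.93 and 18.2 CPM in Smart-seq / C1 and 0.64 and 0.725 CPM in Smart-seq2. In tag libraries Hsf5 had 0 to 4.2 CPM. It passed the filter on low counts only through Smart-seq / C1, where it is highest. Its rise is therefore a description only, although the count of 4 and the median of 0.72 include it. The other genes that rose were Eef1a1, Hdac6 and Hsf2.

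Between CEL-seq2 and MARS-seq, the called partner genes that fell furthest were Ubb and Ahsa1, picked from their lists for their size. Polyubiquitin Ubb had 60.5 and 59.6 CPM in CEL-seq2, against 1483 and 1538 CPM in MARS-seq (-4.65 ± 0.42, edgeR adjusted p = 6.39e-07), and Ahsa1 had 16.8 and 17 CPM in CEL-seq2 against 203 and 223 CPM in MARS-seq (-3.65 ± 0.36, adjusted p = 1.6e-06). Of the HSF1-linked stress genes 3 of 19 rose and 2 fell (median 0.80, against 0.19 over all genes, of which 11% were called higher and 12.4% lower), and of the HSP90 cochaperones 4 of 16 rose and 2 fell (median 0.06). The counts of HSF1-linked genes are near the shares over all genes. Between the full-length methods Hspb1 fell most, with 23.3 and 4.55 CPM in Smart-seq / C1, against 286 and 297 CPM in Smart-seq2 (-4.38 ± 0.56, adjusted p = 0.000148), while the HSP90 cochaperone Ptges3, known as p23, rose (2.78 ± 0.34, adjusted p = 7.78e-05) and the cochaperone Nudc fell (-2.78 ± 0.34, adjusted p = 8.04e-05). Of the HSP90 cochaperones 1 of 16 rose and 5 fell there (median 0.03), and of the HSF1-linked stress genes 2 of 19 rose and 4 fell (median 0.01, against 0.11 over all genes, of which 8.76% were called higher and 6.82% lower).

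Among cells of 1 library, Hsp90ab1 was the most even member. Variation was taken as the squared coefficient of variation in cells thinned to 10000 counts, on a log2 scale, less the trend of all genes on their mean, and 6 members reached the minimum mean of 0.2 counts in every library, which Hspa8, Hspa1a, Hspa1b and Hsf1 did not. For Hsp90ab1 this residual was -1.79 and -1.10 for Smart-seq / C1 A and B, with Smart-seq2 at -1.31 and -1.47, CEL-seq2 at -1.10 and -0.75, MARS-seq at 0.09 and -0.42, Drop-seq at -0.73 and -0.64, and SCRB-seq at -0.95 and -0.63. It lay below the trend in 11 of 12 libraries, all but MARS-seq A, and averaged -0.90 ± 0.10 (SE, limma adjusted p = 1.53e-07), the lowest of 2636 genes. Of all genes 2.09% were called higher and 2.09% lower, beside 1 of 6 members. The call held under every alternative tried, with residuals of -0.96 to -0.67.

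The other 5 did not pass: Hspe1 (-0.22 ± 0.09, limma adjusted p = 0.196), Hspd1 (-0.18 ± 0.10, 0.336), Hsp90aa1 (-0.11 ± 0.10, 0.61), Dnajb1 (0.08 ± 0.10, 0.699) and Hsph1 (0.19 ± 0.10, 0.289). In another random draw of the thinning, tried after seeing the data, Hspe1 (-0.42, adjusted p = 0.0122) and Hsph1 (0.36, adjusted p = 0.0284) were also called. Hsph1 in MARS-seq A, at 1.13, was the highest single residual among members.

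**Figure D5:**
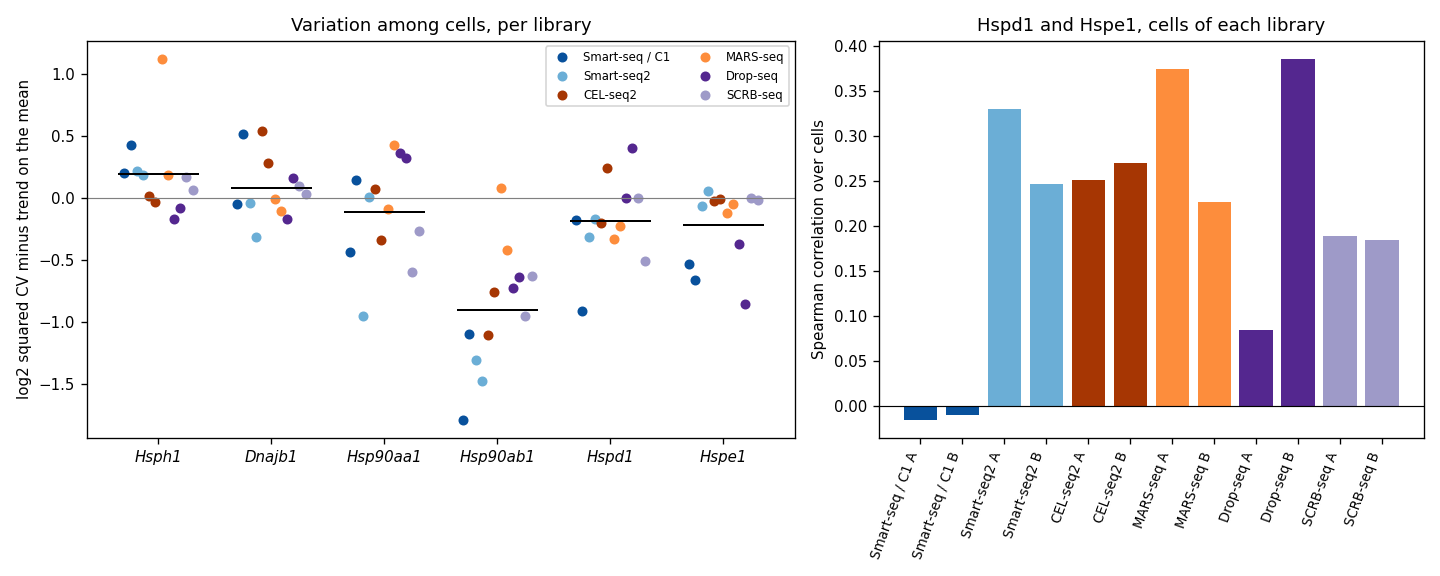
Left, residual variation among cells (log2 squared coefficient of variation less the trend on the mean) of the 6 members with enough counts, 1 point per library and a line at the mean over methods. Right, Spearman correlation of Hspd1 with Hspe1 over the cells of each library, thinned to 10000 counts. Hsp90ab1 lies below 0 in 11 of 12 libraries, and the correlation is positive in 10 of 12.

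Across cells the members moved together little. Over 15 pairs of the 6 members with enough counts, the Spearman correlation within a library, averaged over 12 libraries, had a median of 0.026 and ranged from -0.121 to 0.21, against a median of 0.00365 over all pairs of 2636 genes. Cells of a library share their preparation, and at this depth such values are descriptions. The highest pair was Hspd1 with Hspe1, at -0.015 and -0.0097 for Smart-seq / C1 A and B, with Smart-seq2 at 0.331 and 0.247, CEL-seq2 at 0.251 and 0.27, MARS-seq at 0.375 and 0.227, Drop-seq at 0.0848 and 0.386, and SCRB-seq at 0.189 and 0.185. In this draw of the thinning the Smart-seq / C1 pair was near 0 and the other 10 libraries were positive, but Smart-seq / C1 B was at -0.157 in another draw and at 0.36 in unthinned CPM. In 4 further draws of the thinning the average was between 0.119 and 0.173, and from unthinned CPM it was 0.319, where the median over all pairs was 0.014. The lowest pair was Hsp90aa1 with Hspe1 at -0.121, which was -0.0105 in another draw, with 6 of 12 libraries positive, and -0.0873 in unthinned CPM.

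For each of the 6 members the genes of most similar pattern over cells were ranked among 2635 others. Hsp90aa1 ranked Eif2s2, a subunit of translation initiation factor eIF2, first at 0.246, positive in 12 of 12 libraries, and Eif2s2 stayed first in all 4 further draws (0.226 to 0.283) and in unthinned CPM (0.353, positive in 11 of 12). Hspd1 and Hspe1 ranked each other first at 0.21, but in further draws Hspe1 ranked 3 to 43 for Hspd1 and Hspd1 ranked 1 to 27 for Hspe1. Hsp90ab1 ranked Ncl, the nucleolar protein nucleolin, first at 0.21, and Ncl ranked 1 to 95 in further draws. For Hsph1 and Dnajb1 the first genes, Tmem242 (0.152) and Ssu72 (0.161), fell as far as rank 1959 and rank 1482 in further draws. The next genes were Ctnnb1 and Larp7 for Hsp90aa1, Mcm6 and Csnk1e for Hsp90ab1, Ncl and Arpc2 for Hspd1, Ptma and Dbi for Hspe1, Gna11 and Rangap1 for Hsph1, and Zfp622 and Enah for Dnajb1, at 0.141 to 0.207.

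Hsf1 itself was seen in 17.4% and 18% of thinned cells of Smart-seq / C1 A and B, 56.2% and 55.8% of Smart-seq2 cells, 32.4% and 56.8% of CEL-seq2 cells, 24.1% and 19.4% of MARS-seq cells, 4.76% and 5.88% of Drop-seq cells, and 20.5% and 31.1% of SCRB-seq cells. The exact 95% interval in Drop-seq A, which covers counting error only, ran from 0.582% to 16.2%, from 2 cells with a count. With Drop-seq barcodes 1 base apart joined and thinned again, a setting chosen after seeing the data, Hsf1 was seen in 0% of Drop-seq A cells (interval up to 13.7%) and 7.14% of Drop-seq B cells.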

How the data were processed

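The authors deposited 1 table of whole-number counts per gene and cell, UMI counts for CEL-seq2, MARS-seq, Drop-seq and SCRB-seq and, as these protocols carry no UMI, read counts for the Smart-seq methods. Per the submitters' processing notes, bcl2fastq and STAR 2.4.0 were used with mm10, the assembly GRCm38. Strand use and what counted the Smart-seq reads are not given in the sources used here. Symbols and lengths came from GENCODE M21, and promoters from RefSeq. The libraries held 583302 to 34984056 counts.

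The members and gene lists were chosen with earlier results of these data known. Within each list the largest rise and fall among genes that passed were named. Counts were summed per library, the unit of replication (2 per method), kept by filterByExpr, scaled by TMM and fitted with edgeR 4.0.16 (robust quasi-likelihood, 1 mean per method). Genes passed at a Benjamini-Hochberg adjusted p below 0.05. The 12 libraries shared 1 estimate of the spread (6 residual degrees of freedom). Alternatives were other scalings, filters and tests, single libraries left out, and, chosen after seeing the data, copy rows summed, Drop-seq barcodes joined and further thinning draws. Variation among cells was fitted with limma 3.58.1 above a loess trend. Both fits were run on simulated data, for edgeR with few genes changed and in Smart-seq2 alone. In the data 65.5% of genes differed between methods, so that simulation does not show how the calls behave there. No A and B files of a method agreed within counting noise (chi-square per degree of freedom 5.38 to 187), so neither is the other deposited again; reads of the Smart-seq methods are not independent molecules, and the values are no test of biological difference. All cells were kept, and doublets were not called. R 4.3.3 and Python 3.11.15 were used.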

Additional observations from a re-analysis of the deposited data

Results flagged for a closer look

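At 3 members the change between the method on the C1 chip and its partner differed between the full-length methods and the methods with in vitro transcription, by the test of the difference itself in edgeR. The log2 fold change of Smart-seq / C1 over Smart-seq2 less that of CEL-seq2 over MARS-seq was 6.65 for Hspa8, -2.91 for Hsf1 and -1.41 for Hspe1. For Hspa8 the rows of its copies held 97.1% and 98.3% of the summed counts in CEL-seq2, against 79.7% and 76.7% in MARS-seq, and 0.13% to 0.506% in the full-length libraries. With the copies summed into the Hspa8 row, a setting chosen after seeing the data, the difference was 3.29 (adjusted p = 0.000518). Each method has 2 libraries, too few to single out 1 library against its group.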

How the results depend on the processing

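With DESeq2 size factors CEL-seq2 against MARS-seq called 1 member (4 with TMM), and Drop-seq against SCRB-seq called 325 genes and 3 members (216 and 1). DESeq2's own test called 959 genes and 3 members in Drop-seq against SCRB-seq and 4 members (2) in Smart-seq / C1 against Smart-seq2. Without the filter on low counts Drop-seq against SCRB-seq called 469 genes. With limma on mean log2(CPM + 1) over cells, CEL-seq2 against MARS-seq called 6484 genes (3345), Drop-seq against SCRB-seq 4066 genes and 3 members, and the difference of the C1 contrasts 6506 genes and 5 members (2251 and 3). The fitted value of Hspa1b, which rests on too few counts to read, was 0.19 there with edgeR and -1.41 with limma. Among settings chosen after seeing the data, summing processed copies called 2 members in Drop-seq against SCRB-seq and turned Hspa8 in full-length against tag libraries from 1.92 to -1.62, and another draw of the thinning called 3 members for variation among cells (1). Thinning to 5000 counts called 40 of 1372 genes tested there (110 of 2636). The causes were not tested. Joining Drop-seq barcodes that lay 1 base apart left the average correlation of Hspd1 with Hspe1 at 0.213.

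Leaving out 1 library at a time gave 609 to 3306 genes and 0 to 3 members for Smart-seq / C1 against Smart-seq2, 1779 to 3931 genes and 1 to 4 members for CEL-seq2 against MARS-seq, and 11 to 626 genes and 0 to 3 members for Drop-seq against SCRB-seq. It gave 1746 to 3847 genes for in vitro transcription against PCR, 2051 to 4117 for methods on the C1 chip against their partners, 1105 to 2902 for the difference of the C1 contrasts and 61 to 161 for variation among cells. A method left with 1 library is assumed to vary like the others. The letters A and B did not pair the samples (correlations of A minus B between methods -0.0839 to 0.0781). With the letter as a replicate block, full-length against tag called 6815 genes and 5 members, in vitro transcription against PCR 7 members, with Hsph1 added (adjusted p = 0.035), and CEL-seq2 against MARS-seq 3, with Hsp90aa1 lost (adjusted p = 0.0502). Hspa1a and Hspa1b rest on 0 to 35 counts a library and Hsf1 in Drop-seq on 4 and 3. Counts of members leave out Hspa1a and Hspa1b.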
